A study of Mus musculus with 69 samples.

Results

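The cytosolic ribosomal protein genes are the genes that encode the protein subunits of the ribosome outside the mitochondria. They were taken from the count table as every row whose symbol is Rpl or Rps followed by a plain subunit name, which gave 81 of the 24411 genes in the table. Of these, 32 carry a small subunit name and 49 a large subunit name. The rule reads symbols only and uses no measured value. It leaves out subunits with other names, such as Fau, Gnb2l1 and Rps3a1, and it takes in a few relatives that are not standard subunits, such as Rps4l, which the GENCODE M21 annotation lists as a transcribed processed pseudogene.

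The libraries came from kidneys of C57BL/6J mice that carried a floxed-stop Uprt transgene in the Rosa26 locus (UPRTf/+) together with a Cre driver. Uprt is a uracil phosphoribosyltransferase of Toxoplasma gondii that loads the uracil analog 4-thiouracil (4-TU) into new RNA. Hoxb7Cre opens the transgene in the collecting duct, and Atp6v1b1Cre, spelled Atp6b1v1Cre in the labels, opens it in intercalated cells and in cells with markers of both collecting duct cell types. Mice received 4-TU at 430 mg/kg 4 h before harvest, and RNA that had taken up the label was biotinylated and pulled down. There were 10 control Hoxb7 pulldowns, 11 control Atp6b1v1 pulldowns and 21 libraries of untagged total kidney RNA from control mice of both genotypes. In the ischemia groups (iAKI), the arteries of both kidneys were clamped for 10 min and the kidneys were examined 24 h later. In the volume depletion groups (vAKI), food and water were withheld for 72 h. There were 7 iAKI and 7 vAKI pulldowns for Hoxb7 and 6 iAKI and 7 vAKI pulldowns for Atp6b1v1. Injured mice and most control mice were 5.5 months old and the other controls 3 months old. Both sexes were used, and the injury comparisons below rest on the 22 pulldowns of males of 5.5 months. Injured mice have no total RNA libraries among those analysed here. The labels do not tie a pulldown to a total RNA library of the same animal.

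The ribosome is assembled from ribosomal RNA and a single copy of most of its proteins, so cells make the proteins in matched amounts. Their mRNAs are short, abundant and known for long lifetimes in many cell types. Most of them begin with a 5′ terminal oligopyrimidine (TOP) tract, a cytosine followed by a run of pyrimidines, through which the kinase mTOR and the RNA-binding protein Larp1 control translation and storage of the mRNA. In a short labelling pulse, a long-lived mRNA renews a smaller fraction of its pool than a short-lived one. A pulldown therefore weighs genes by new synthesis in the labelled cells, whereas total RNA weighs them by standing abundance in the whole kidney.

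Libraries held between 12618062 and 30305464 counts on genes. Of the 81 ribosomal protein genes, 77 had counts in every library. The remaining 4 were close to 0: Rpl26 summed to 2 counts over all 69 libraries, Rpl10l to 13, Rpl39l to 53 and Rpl30 to 207. Rpl10l and Rpl39l are relatives known from testis. Rpl26 and Rpl30 are core subunits. Reads mapping to several places were not counted, and 28.7% of the 50-base windows of the Rpl26 transcript and 23.6% of those of Rpl30 were found in no other annotated transcript. The median over the 81 genes was 46.3%, and 18 genes were under 20%. Ribosomal protein genes have many processed pseudogenes, and the levels of these 18 are uncertain for that reason. Across members, the share of such windows and the level per kilobase in total RNA had a Spearman's rho of -0.12, so few unique windows did not go with low levels in general. Rpl9, with 6.68%, was at 447 CPM (scaled counts, defined below) per kb. Each is compared here with itself across libraries. All 81 genes passed the minimum of 2 counts over the 69 libraries used for testing.

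For single genes, CPM is the count relative to a common library size set by the trimmed mean of M values (TMM). Markers of the targeted cells were checked in the same libraries as sums. These marker sums, also given in CPM, are relative to the total counts of each library, without TMM scaling. The 6 principal cell markers, with Aqp2 and Aqp3 among them, summed to 1312 to 3807 CPM in control Hoxb7 pulldowns and 489.5 to 1010 in total RNA, which did not overlap. The 6 intercalated cell markers summed to 623 to 1424 CPM in control Atp6b1v1 pulldowns and 233 to 474 in total RNA. The 5 proximal tubule markers were lower but far from 0, at 1356 to 4294 CPM over all control pulldowns against 6337 to 11029 in total RNA. In bulk RNA, fewer cells of a type and less RNA per cell cannot be told apart.

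The 5′ ends of a few of these genes are shown because TOP mRNAs are recognised there and because these members return in the results. Each window holds 15 bases before and 15 bases from the RefSeq start on the sense strand, read from the RefSeq table of build GRCm38.p6, with CTTTC in capitals where it occurs. The windows of Rpl38 (chr11:114668565-114668594, plus strand), Rplp2 (chr7:141447636-141447665, plus), Rps27 (chr3:90213634-90213663, minus), Rps15a (chr7:118116133-118116162, minus), Rpl15 (chr14:18270972-18271001, minus) and Rpl13a (chr7:45128731-45128760, minus) hold the motif. Those of Rps6 (chr4:86857353-86857382, minus) and Rplp0 (chr5:115559452-115559481, plus) do not. Holding CTTTC is not the same as beginning with a TOP tract. From its start the Rps6 window reads ctctttttc, a cytosine and a run of pyrimidines, without the motif. The motif of Rps15a lies before its start, from which the window reads cttccctc, also a cytosine and a run of pyrimidines. The Rpl13a window has a g at its start.
Rpl38: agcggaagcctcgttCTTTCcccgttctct
Rplp2: tgcgtcagcgtcttcCTTTCgccgccggac
Rps27: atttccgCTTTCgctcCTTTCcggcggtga
Rps15a: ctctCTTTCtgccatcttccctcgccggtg
Rpl15: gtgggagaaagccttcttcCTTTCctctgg
Rpl13a: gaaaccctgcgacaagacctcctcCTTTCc
Rps6: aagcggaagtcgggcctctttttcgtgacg
Rplp0: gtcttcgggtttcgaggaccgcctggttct

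The start table held 60 of the 81 genes. CTTTC on the sense strand within 50 bases on either side of the start was present in 32 of these 60 (53.3%) and in 3934 of 27025 genes of the table (14.6%). On the opposite strand it was present in 7 of the 60 (11.7%) and in 3734 of the 27025 (13.8%). This describes letters in a window and is not a map of bound sites or of TOP function.

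In total kidney RNA the ribosomal protein genes were expressed at widely different levels. Per kilobase of annotated transcript, Rplp1 was the highest at 974 CPM per kb. Rps15 was at 615 and Rps12 at 583. Rplp1 encodes an acidic protein of the stalk that recruits elongation factors. Among the 77 well-counted members the lowest were Rpl3l at 1.79 CPM per kb, Rps27 at 2.67 and Rpl34 at 3.15. Rpl3l is a relative of Rpl3 known from muscle. Rps27 is a core small subunit gene, with 1.35% of its 50-base windows found in no other transcript. Rps12, among the high members, had 9.89%.

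The question of the first comparison is how the newly made RNA of the labelled cells differs from the standing RNA of the kidney. Ribosomal protein mRNAs took up a smaller part of every pulldown than of any total RNA library. Together the 81 genes held a median of 1.45% of counts in the 21 total RNA libraries (range 1.19% to 1.99%). They held a median of 0.260% in the control Hoxb7 pulldowns (0.194% to 0.338%) and 0.249% in the control Atp6b1v1 pulldowns (0.202% to 0.323%). The groups did not overlap, and the median of total RNA was 5.64 times that of the 21 control pulldowns. Without the 100 most counted genes, none of which is a member, the ratio was 6.29. This share is a description over all members and was not tested.

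**Figure D1:**
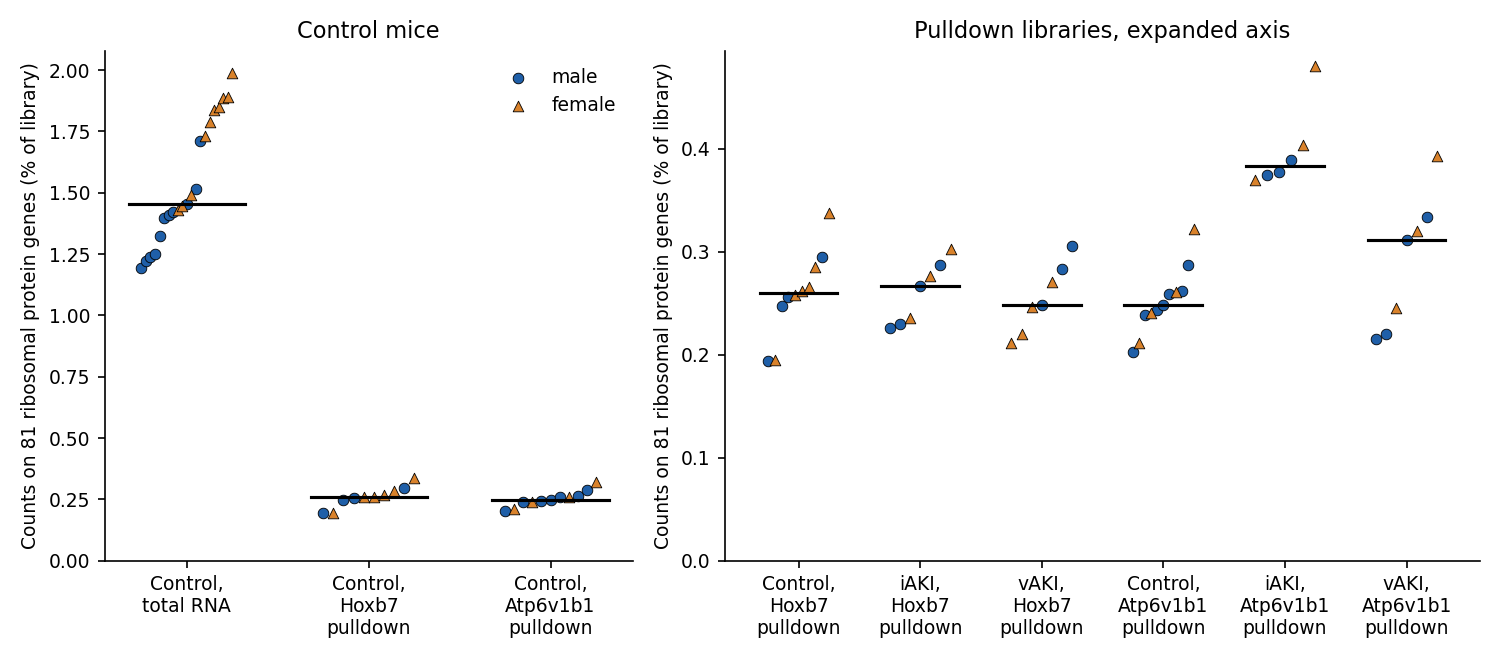
Share of counts on the 81 ribosomal protein genes (percent, vertical axis) in each of the 69 libraries, grouped by RNA pool and treatment, with 1 point per library (circles for males, triangles for females, lines at the group medians) and the pulldowns on an expanded axis at the right. Total RNA libraries lie between 1.19% and 1.99%, and the highest pulldown, an iAKI Atp6b1v1 library, is at 0.481%.

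A gene was called higher or lower at an adjusted p under 0.05 in edgeR's quasi-likelihood test over all genes. By this test 78 of the 81 were lower in the control Hoxb7 pulldown than in total RNA and 0 were higher, also at an unadjusted p under 0.05 and with DESeq2. Over all 21175 genes tested, 31.1% were lower and 35.6% higher. The drop was at least 1 on the log2 scale for 77 members, against 17.9% of all genes. For 73 members every Hoxb7 pulldown was below every total RNA library, which held for 14.9% of all genes. Over the 77 well-counted members the median log2 fold change was -3.11, or 8.61-fold lower, whereas the median of all genes was 0.11. All 32 small subunit members and 46 of the 49 large subunit members were lower. The 3 that did not pass were Rpl10l, Rpl26 and Rpl39l, all near 0 counts.

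The control Atp6b1v1 pulldown was set against the same 21 total RNA libraries, so its values are not independent of those above. There 78 members were lower, against 29.4% of all genes, and 1 was higher, against 34.4%. The 1 higher member was Rpl10l, whose highest library held 3 counts. For 74 members the groups did not overlap, against 14.3% of all genes. The median over the 77 well-counted members was -3.09, or 8.50-fold lower.

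The lowest well-counted members in the Hoxb7 pulldown were Rpl36, Rps21, Rpl38, Rplp1 and Rps29. Rpl36, of the large subunit, was at 90.5, 130 and 177 CPM (lowest, median and highest) in total RNA, at 4.48, 7.84 and 12.9 in Hoxb7 pulldowns and at 6.74, 8.55 and 9.59 in Atp6b1v1 pulldowns. Its log2 fold change was -4.03 ± 0.12 (SE; adjusted p = 4.92e-31) for Hoxb7 and -3.94 ± 0.11 for Atp6b1v1. Every pulldown lay below every total RNA library.

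Rps21, of the small subunit, was at 134, 167 and 200 CPM in total RNA and at 6.89, 10.5 and 14.8 in Hoxb7 pulldowns, a log2 fold change of -4.01 ± 0.09 (adjusted p = 1.05e-35). Rpl38, a large subunit protein known for its part in the translation of Hox mRNAs, was at 55.9, 77.4 and 94.1 CPM in total RNA and at 3.98, 4.81 and 7.65 in Hoxb7 pulldowns (-3.93 ± 0.12). In Atp6b1v1 pulldowns it had the lowest value of the well-counted members, -3.97 ± 0.11. Rps29, a zinc-binding small subunit protein, followed at -3.83 ± 0.09 for Hoxb7 and Rpl41, the shortest of the ribosomal proteins, at -3.86 ± 0.10 for Atp6b1v1.

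The 3 stalk proteins did not move by equal amounts. Rplp1 was at 302, 470 and 676 CPM in total RNA and at 19.8, 31.9 and 45.1 in Hoxb7 pulldowns, a log2 fold change of -3.91 ± 0.12. Rplp2, its partner, was at 154, 189 and 272 CPM in total RNA and at 12.8, 19.5 and 25.6 in Hoxb7 pulldowns (-3.37 ± 0.10). Rplp0, which anchors both on the ribosome, was at 262, 562 and 740 CPM in total RNA and at 57.7, 75.6 and 91.8 in Hoxb7 pulldowns (-2.84 ± 0.17). In Atp6b1v1 pulldowns Rplp0 spread more widely, from 31.2 to 92.6 CPM (-3.24 ± 0.17).

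Members known for roles beyond the ribosome lay within the range of the others. Rps6, the substrate of the S6 kinases downstream of mTOR, was at 180, 230 and 297 CPM in total RNA and at 32.4, 42.7 and 45.5 in Hoxb7 pulldowns (-2.52 ± 0.08). Rpl5 (-2.38 ± 0.08) and Rpl11 (-3.07 ± 0.08) bind Mdm2 together with 5S ribosomal RNA. Rps19, mutated in Diamond-Blackfan anemia, was at -3.52 ± 0.09, and Rpsa, also known as the laminin receptor, at -3.40 ± 0.08. Rps27a, made as a fusion with ubiquitin, was at -2.97 ± 0.12.

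The smallest drops belonged to members that are little counted or unusual. Rps4l was at 6.53, 10.2 and 16.7 CPM in total RNA and at 6.04, 7.24 and 12.7 in Hoxb7 pulldowns, which overlapped, with a log2 fold change of -0.46 ± 0.12 (adjusted p = 0.00078). The Rps4l call was lost with males only (-0.36) and under upper quartile scaling (-0.27). The parent gene of Rps4l on the X chromosome, Rps4x, was at -2.98 ± 0.06. Rps4l was also the 1 member that passed the test between the 2 control pulldowns. It was at 3.05, 4.17 and 5.68 CPM in Atp6b1v1 pulldowns, below every Hoxb7 pulldown, a difference of -0.86 ± 0.14 on the log2 scale (Atp6b1v1 against Hoxb7). Of all genes 4.2% were lower and 5.73% higher in that comparison, and the median over the 77 members was 0.00.

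Rpl34 fell by 1.10 on the log2 scale and Rps27 by 1.48 in the Hoxb7 pulldown, both at a median under 2 CPM in every control group. Rps15a, a well-counted small subunit gene, was at 125, 175 and 218 CPM in total RNA and at 28.9, 39.4 and 55.6 in Hoxb7 pulldowns (-2.12 ± 0.10). Rpl4, of the large subunit, was at -2.31 ± 0.07 for Hoxb7 and -2.29 ± 0.07 for Atp6b1v1. Rps27l, a relative of Rps27 known as a target of p53, was at -2.90 ± 0.11. Rpl3l, the lowest of the well-counted members in level per kilobase, was at -2.13 ± 0.22, among the 5 smallest drops in Hoxb7, beside -2.51 ± 0.08 for Rpl3.

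**Figure D2:**
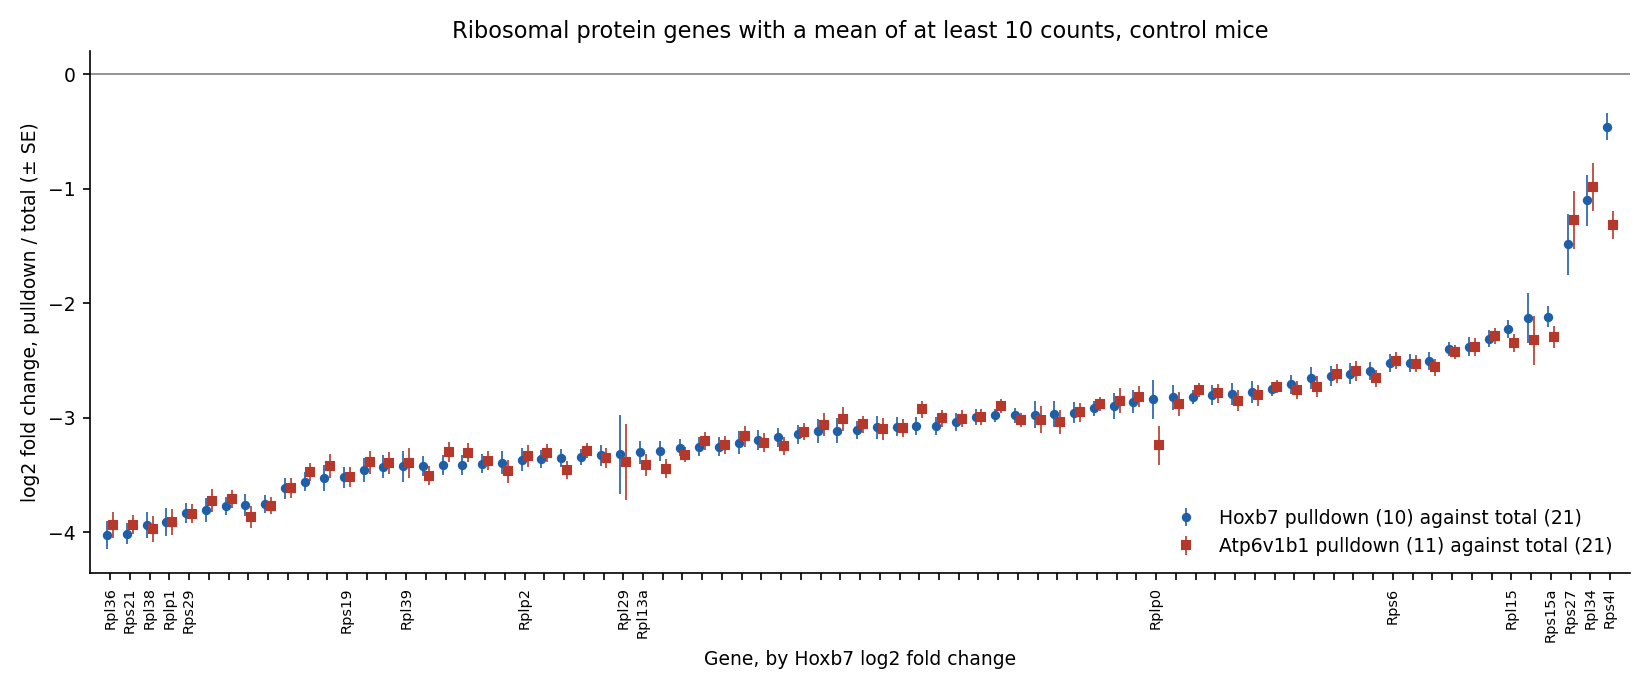
Log2 fold change of pulldown against total RNA for the 77 ribosomal protein genes with a mean of at least 10 counts, for each control pulldown, with bars of 1 SE from the quasi-likelihood fit and names at a few of the genes that the text describes by library. Nearly all genes lie between -2 and -4, and Rps4l, Rpl34 and Rps27 stand nearest to 0.

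Most genes of several other lists were also lower in the pulldown, by different amounts. The lists were not tested against each other. Of 77 nuclear-encoded genes of the respiratory chain, 76 were lower in the Hoxb7 pulldown, with a median of -3.13 beside -3.08 for all 81 ribosomal protein genes. Of 77 mitochondrial ribosomal proteins, 74 were lower and 1 higher, with a median of -1.60. Of 14 glycolytic genes, 13 were lower and 1 higher (median -1.86). Of 21 elongation factors and other TOP mRNAs, 20 were lower and 1 higher (median -1.38). Among these, Tpt1 was at -3.08 ± 0.11, Eef2, the translocase of elongation, at -1.92 ± 0.08 and Pabpc1, the poly(A)-binding protein, at -0.15 ± 0.06.

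Ribosomal proteins whose symbols fall outside the rule were lower too, 7 of 7, with a median of -2.47. Gnb2l1, the gene of the small subunit scaffold Rack1, was at -2.47 ± 0.06. In contrast, factors that build ribosomes did not share the drop: of 67 biogenesis factors, 29 were higher and 25 lower (median 0.04). Of 25 genes of the mTOR pathway and of TOP regulation, 12 were higher and 8 lower (median 0.14), with Larp1 at 0.50 ± 0.07. Of 30 mRNAs known for short lifetimes, 14 were higher and 3 lower (median 0.28) in Hoxb7, and 10 were higher and 5 lower in Atp6b1v1 (median 0.00), where 34.4% of all genes were higher.

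Transcript length went with the difference between pulldown and total RNA across all coding genes, and the ribosomal protein genes are short. Their median annotated transcript was 775 bases against 2631 for coding genes tested. Over 13842 coding genes, Spearman's rho between transcript length and the Hoxb7 log2 fold change was 0.50. Over 76 ribosomal protein genes it was 0.37, and 0.52 with coding length. Genes share libraries and are not independent replicates, so these are descriptions.

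Within length classes up to 1500 bases the median of the ribosomal protein genes was below that of other coding genes. Among transcripts of up to 600 bases, the median log2 fold change was -3.41 for 23 members and -2.55 for 134 other coding genes. From 601 to 800 bases it was -3.12 for 18 members and -1.78 for 261 others, and from 801 to 1000 bases -3.08 for 15 members and -1.39 for 388 others. From 1001 to 1500 bases it was -2.96 for 13 members and -0.88 for 1389 others. The 4 members from 1501 to 2000 bases had a median of -2.88, and the 3 longer ones were at -2.38, -3.29 and -2.12 in order of length. The medians of members rose with length up to 2000 bases, over a smaller range than those of the other genes, which reached 0.74 above 5000 bases. Respiratory chain genes lay at or below the members in the first 3 classes, at -3.60, -3.32 and -3.31, and at -2.82 in the class from 1001 to 1500 bases. Pulldown libraries were prepared from less RNA than total RNA libraries, and RNA pool, input and labelled cell type cannot be told apart here.

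**Figure D3:**
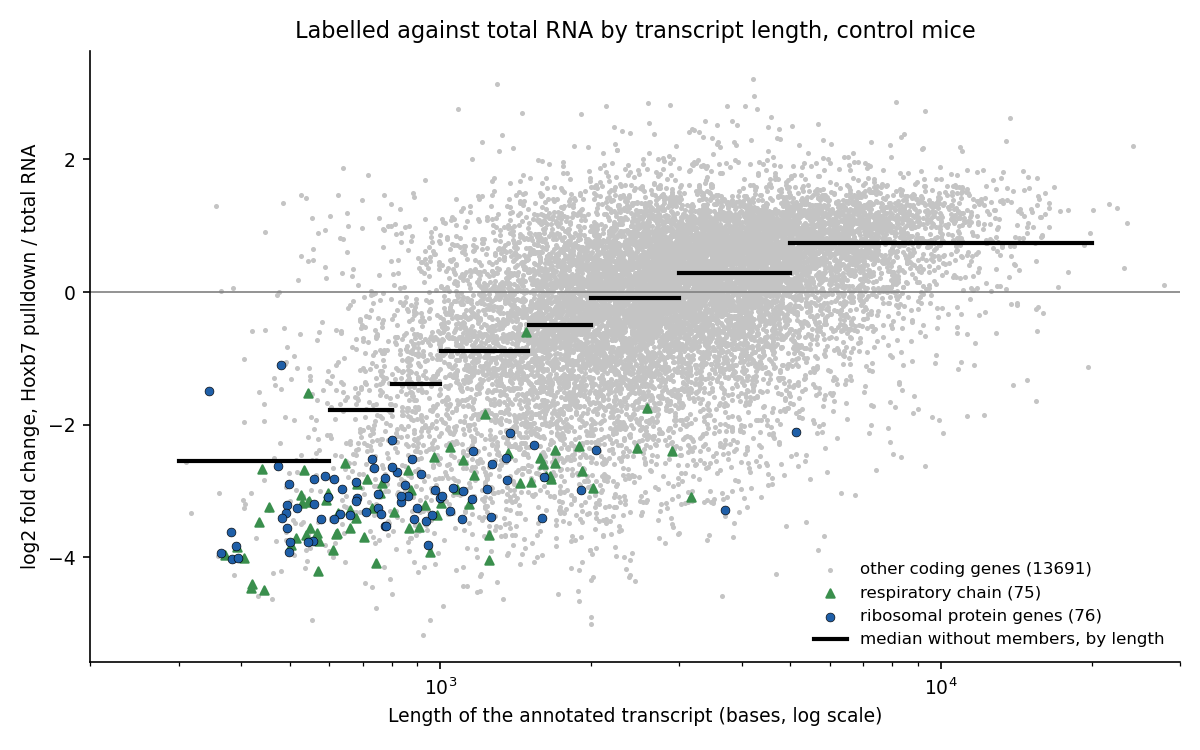
Log2 fold change of the control Hoxb7 pulldown against total RNA (vertical axis) by annotated transcript length in bases (horizontal axis, log scale) for ribosomal protein genes, respiratory chain genes and other coding genes. Members lie in the lower left, with medians from -3.41 at up to 600 bases to -2.96 at 1001 to 1500 bases.

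Among controls, sex made a smaller difference. In the fit over the 3 RNA pools, 14 of 81 members (17.3%) were higher in females and 1 was lower, against 13.8% higher and 16.5% lower over all genes. The median difference was 0.11 on the log2 scale. The largest of the 14 was Rps28, at 0.24 ± 0.06, and the 1 lower member was Rpl3l, at -0.80 ± 0.17. The summed share in total RNA at 5.5 months was 1.19% to 1.42% in 8 males and 1.43% to 1.99% in 8 females, with no overlap. The library numbers fall into 3 series with gaps between them, whose meaning the labels do not give. Within series A the total RNA share was 1.19% to 1.25% in males and 1.43% to 1.49% in females, and within series B it was 1.32% to 1.42% and 1.79% to 1.89%. In the pulldowns of 5.5 months the sexes overlapped, at 0.194% to 0.295% in males and 0.195% to 0.338% in females for Hoxb7.

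The injury comparisons ask how new RNA synthesis changes 24 h after ischemia and after 72 h of volume depletion. The p-values measure the spread between libraries, each taken as a separate mouse, which the labels do not state in words. The drivers are described in turn, and the difference between them is tested below. In Hoxb7 pulldowns of males, 1 of 81 members was higher after ischemia and 0 lower, against 3.34% higher and 2.79% lower over all genes. At an unadjusted p under 0.05 there were 5 higher and 4 lower, and DESeq2 called 1 higher and 2 lower. The median log2 fold change was 0.00. The 1 member was Rps19, at 11.4, 15.3, 15.6 and 16.1 CPM in controls and 19.6, 21.6, 21.8 and 22.3 after ischemia, a log2 fold change of 0.55 ± 0.15 (adjusted p = 0.032). All 4 injured libraries were above all 4 controls, but the call was lost without any 1 of iAKI Hoxb7 replicates 4, 5 and 7 and Control Hoxb7 replicates 2, 3 and 5.

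Other members with large values in that comparison did not pass the test. Rps4l was at 6.93 to 14.4 CPM in controls and 4.25 to 6.15 after ischemia (-0.81 ± 0.25, adjusted p = 0.055). Rps14, of the small subunit, was at 30.2 to 44.7 CPM in controls and 22.8 to 27.1 after ischemia (-0.49 ± 0.15, adjusted p = 0.058). Rpl29 varied widely, at 5.17 to 13.8 CPM in controls and 9.55 to 18.5 after ischemia (0.90 ± 0.47, adjusted p = 0.29). Rpl10a was at 0.40 ± 0.15 and Rpl15 at -0.35 ± 0.13, with adjusted p = 0.11 for both.

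The value in Hoxb7 also moved with the library series and with cell markers. All injured Hoxb7 libraries belong to series A, whereas the 4 controls fall equally into series A and B. Against the 2 series A controls alone, the median log2 difference over 77 members was 0.17, with 53 above 0, where that of all genes was 0.02. With series as a covariate 6 members were called higher and 0 lower. The share over all genes with that covariate is not given here. The summed principal cell markers were at 2886 to 3807 CPM in the 4 controls (males of 5.5 months) and at 1150 to 1362 after ischemia, without overlap. In Atp6b1v1 these markers were at 844 to 901 CPM in controls and 883 to 1103 after ischemia, which overlapped. The part of these shifts in the ribosomal protein values was not tested.

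In Atp6b1v1 pulldowns of males, 38 of 81 members (46.9%) were higher after ischemia and 0 were lower. Over all genes 3.77% were higher and 4.74% lower. At an unadjusted p under 0.05 there were 64 higher and 1 lower, and DESeq2 called 47 higher and 0 lower. Without iAKI Atp6b1v1 replicate 1 the 38 became 13, and leaving out any other library gave up to 45. The 38 comprised 18 of 32 small subunit and 20 of 49 large subunit members. Their changes were modest: 1 member, Rpl39, passed a log2 fold change of 1, against 1.14% of all genes. For 67 of the 81 members all 3 ischemic libraries were above all 4 controls, against 11.0% of all genes. The median log2 fold change was 0.53, where that of all genes was 0.00. Over 13863 coding genes, Spearman's rho between transcript length and this log2 fold change was -0.31. Other coding genes had medians of 0.24 up to 600 bases and 0.29 from 601 to 800 bases. They were at 0.26 from 801 to 1000 bases, 0.19 from 1001 to 1500 and -0.23 above 5000. In the first 4 of these classes members were at 0.47, 0.51, 0.61 and 0.58. The part of length in the rise was not tested. The share of counts on the members was 0.202% to 0.249% in the 4 controls and 0.375% to 0.389% in the 3 ischemic libraries.

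Rpl39, a very short protein lining the exit tunnel of the large subunit, was at 6.36, 6.63, 7.95 and 8.75 CPM in controls and at 13.8, 14.5 and 16.4 after ischemia. The log2 fold change was 1.00 ± 0.20 (adjusted p = 0.0049). Rpl13a, also known for a part in translational silencing outside the ribosome, was at 36.0, 37.8, 37.9 and 42.9 CPM in controls and at 63.7, 70.4 and 72.95 after ischemia (0.84 ± 0.15, adjusted p = 0.0023). The ischemic libraries of both genes lay well above the controls.

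Rps6 was at 38.6, 42.5, 44.5 and 45.2 CPM in controls and at 65.6, 66.7 and 69.7 after ischemia (0.66 ± 0.15). Rpl15, of the large subunit, was at 26.6, 27.2, 29.3 and 31.3 CPM in controls and at 42.6, 48.8 and 53.0 after ischemia (0.75 ± 0.14). Rps27a was at 23.4 to 32.7 CPM in controls and 48.4 to 52.5 after ischemia (0.82 ± 0.18). Rpsa (0.75 ± 0.14), Rpl5 (0.57 ± 0.13), Rpl11 (0.53 ± 0.15), Rpl22 (0.61 ± 0.15), Rps25, known for its part in internal initiation (0.56 ± 0.16), Rps4x (0.63 ± 0.14), Rpl3 (0.42 ± 0.12) and Rps27l (0.53 ± 0.16) also passed. Of these, the calls of Rpl5, Rpl11, Rpl22, Rps25, Rps4x, Rpl3 and Rps27l were lost without iAKI Atp6b1v1 replicate 1, those of Rpl22, Rps25, Rpl3 and Rps27l without replicate 4, and those of Rpl3 and Rps27l without replicate 5. Those of Rpl11, Rps25, Rpl3 and Rps27l were lost without Control Atp6b1v1 replicate 6 or 9, those of Rpl11, Rpl3 and Rps27l without replicate 11, and those of Rps25 and Rps27l without replicate 10. Rps27l also lost its call with DESeq2's size factors, with 25 males, and without any 1 of Control Hoxb7 replicate 5, iAKI Hoxb7 replicates 4, 6 and 7 and vAKI Hoxb7 replicates 6 and 7.

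Several members did not pass. Rplp0 was at 35.2, 57.2, 60.7 and 68.98 CPM in controls and at 58.4, 80.9 and 120 after ischemia, which overlapped (0.64 ± 0.23, adjusted p = 0.084). Rplp1 was at 30.2 to 40.5 CPM in controls and 45.6 to 53.9 after ischemia, without overlap (0.47 ± 0.19, adjusted p = 0.13). Rpl29 had the largest fitted value of the well-counted members, 1.02 ± 0.51, but ranged from 1.88 to 7.89 CPM in controls and from 3.11 to 17.4 after ischemia (adjusted p = 0.22). Rps19, which rose in Hoxb7, was at 12.9 to 19.3 CPM in controls and 17.3 to 21.0 after ischemia (0.36 ± 0.16, adjusted p = 0.16). Among the well-counted members Rpl34 had the lowest value, -1.09 ± 0.49 (adjusted p = 0.18).

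**Figure D4:**
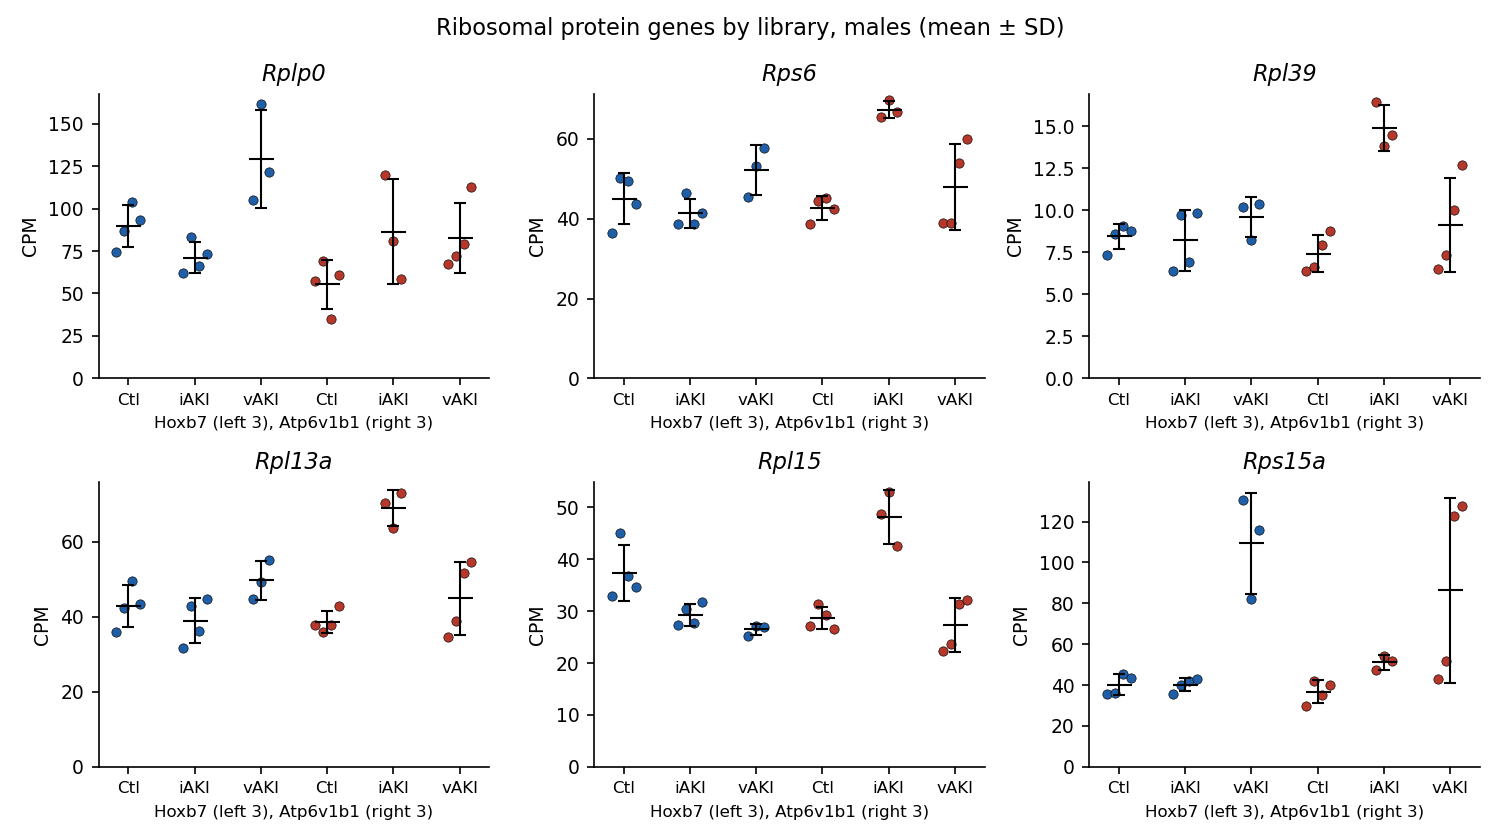
CPM (vertical axes) of Rplp0, Rps6, Rpl39, Rpl13a, Rpl15 and Rps15a in each male pulldown of 5.5 months, by driver and treatment, with the mean and SD of each group. In Atp6b1v1, ischemic libraries of Rps6, Rpl39, Rpl13a and Rpl15 lie above their controls, and Rps15a is highest after volume depletion.

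Other components of translation shared part of this rise, and the lists were not matched for transcript length. After ischemia in Atp6b1v1 pulldowns, 7 of 21 elongation factors and other TOP mRNAs were higher and 0 lower (median 0.40), among them Eef1g at 0.57 ± 0.11, Eef1b2 at 0.55 ± 0.14 and Tpt1 at 0.48 ± 0.15. Of the 7 ribosomal proteins with other symbols, 3 were higher, namely Rps3a1 at 0.77 ± 0.21, Rpl36al at 0.65 ± 0.18 and Gnb2l1 at 0.47 ± 0.12. Of 77 mitochondrial ribosomal proteins, 14 were higher (median 0.28), and of 77 respiratory chain genes 1 was (median 0.16). Of 67 biogenesis factors 5 were higher and 1 lower. Of 25 mTOR pathway genes 0 were higher and 7 lower, with Mtor itself at -1.04 ± 0.27.

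Markers of other tubule segments moved in the same libraries. The summed proximal tubule markers were at 1814 to 3479 CPM in the 4 male Atp6b1v1 controls of 5.5 months (males of 5.5 months throughout) and at 830.0 to 1090 after ischemia. The summed markers of the thick ascending limb were at 1124 to 2249 CPM in these controls and at 2325 to 3826 after ischemia. Umod, which marks the thick ascending limb, was higher (1.27 ± 0.25), the proximal phosphate transporter Slc34a1 was lower (-2.43 ± 0.46), and the injury genes Havcr1 (6.03 ± 0.89) and Lcn2 (4.41 ± 0.71) were higher. The summed intercalated cell markers were at 811 to 1055 CPM in controls and at 1714, 1464 and 765 CPM in iAKI replicates 1, 4 and 5, so that 2 of the 3 libraries lay above the controls and 1 below. Foxi1, the defining factor of intercalated cells, was at 0.34 ± 0.31 (adjusted p = 0.55). The part of these shifts in the rise of the ribosomal protein genes was not tested.

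The rise was present in both series of libraries and in both sexes. Ratios of mean CPM, with 0.1 added, gave a median log2 difference of 0.57 over 77 members in series A (2 ischemic and 2 control libraries) and 0.52 in series B (1 and 2 libraries), with 74 of 77 members above 0 in each. Medians over all genes in these ratios were 0.01. In females of 5.5 months, which the comparison above did not use, the share was 0.211% to 0.323% in 4 controls and 0.370% to 0.481% in 3 ischemic libraries. In a fit over 43 pulldowns of both sexes with a term for each group and sex, chosen after these values were seen, 54 members were higher after ischemia in Atp6b1v1 females, against 5.77% of all genes, and 33 in males, against 2.35%. The difference between the sexes passed the test for 0 genes in edgeR, with 676 genes and 0 members at an unadjusted p under 0.05, and was not run in another tool.

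The difference in response between the drivers was tested as an interaction. For 22 of 81 members (27.2%) the ischemia response was higher in Atp6b1v1 than in Hoxb7 and for 0 it was lower, against 3.67% higher and 4.11% lower over all genes. At an unadjusted p under 0.05 there were 44 higher and 0 lower, and DESeq2 called 29 and 0. The median difference was 0.49. It was largest for Rps4l (1.32 ± 0.37), Rps20 (1.13 ± 0.27), Rpl15 (1.10 ± 0.19), Rpl39 (1.04 ± 0.28) and Rps14 (1.04 ± 0.22). For Rps4l and Rps14 part of it lay in the Hoxb7 values of -0.81 and -0.49 given above. Rps6 differed by 0.78 ± 0.20 and Rpl13a by 0.97 ± 0.21, and Rplp0 by 0.97 ± 0.31 without passing (adjusted p = 0.058). The series and marker values given above for Hoxb7 enter this difference as well, with principal cell markers lower after ischemia in Hoxb7 libraries and overlapping in Atp6b1v1. Transcript length also went with the ischemia response over coding genes, with a Spearman's rho of -0.31 in Atp6b1v1 and 0.17 in Hoxb7. The call of Rpl39 was lost without Control Atp6b1v1 replicate 9, Control Hoxb7 replicate 3, iAKI Atp6b1v1 replicate 1 or iAKI Hoxb7 replicate 4 or 6. That of Rps4l was lost without Control Atp6b1v1 replicate 9, Control Hoxb7 replicate 4, iAKI Atp6b1v1 replicate 4 or 5 or iAKI Hoxb7 replicate 7, and that of Rps6 without Control Hoxb7 replicate 3 or iAKI Atp6b1v1 replicate 4. In an edgeR fit of the 21 female pulldowns alone the interaction passed for 0 members and 0 genes, with a median of 0.59 over the members. At an unadjusted p under 0.05 it was higher for 39 members and lower for 0, of 1525 genes in either direction, and no other tool was run. In the male fit, leaving out 1 library at a time gave 9 to 28 members, with 9 without Control Hoxb7 replicate 3 or iAKI Hoxb7 replicate 4, 10 without iAKI Hoxb7 replicate 6 or iAKI Atp6b1v1 replicate 1, 11 without iAKI Atp6b1v1 replicate 4, 13 without Control Atp6b1v1 replicate 9 and 14 without Control Atp6b1v1 replicate 6.

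**Figure D5:**
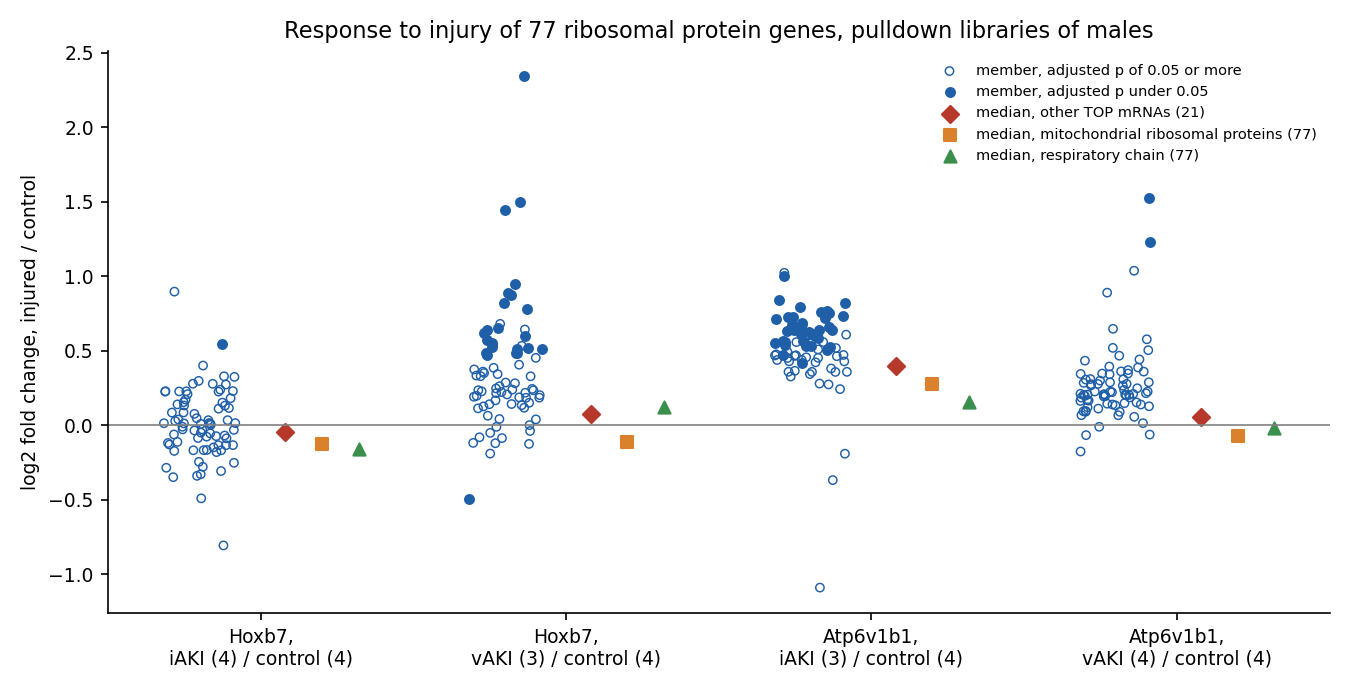
Log2 fold change of injury against control in male pulldowns for the ribosomal protein genes, by driver and injury, with members that passed the test marked. Ischemia in Atp6b1v1 shifts the set as a group, with a median of 0.53. Volume depletion spreads a few members, led by Rps27, Rpl34 and Rps15a, far above the rest. Rps27 and Rpl34 held few counts in the controls.

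Volume depletion gave another pattern. In Hoxb7 pulldowns of males, 23 of 81 members (28.4%) were higher and 1 was lower, against 17.9% higher and 17.6% lower over all genes. The median was 0.25. For 21 members all injured libraries were above all controls, against 19.8% of all genes, and 3 members passed a log2 fold change of 1, against 9.61%. The 24 calls became 13 without Control Hoxb7 replicate 2 or vAKI Hoxb7 replicate 6, and 12 without vAKI Hoxb7 replicate 7. Against the 2 controls of series A, to which all 3 injured libraries belong, the median log2 difference over 77 members was 0.41, with 69 above 0, where that of all genes was -0.01. With series as a covariate 39 members were called higher and 1 lower. The 17.9% and 17.6% above belong to the fit without that covariate, and the shares with it are not given here. Principal cell markers were at 2886 to 3807 CPM in controls (males of 5.5 months) and 1121 to 1206 after volume depletion, and thick ascending limb markers at 1540 to 2498 and 767 to 866, both without overlap. The part of these shifts was not tested.

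The 3 large changes belonged to Rps27, Rpl34 and Rps15a. Rps15a was at 35.5, 36.3, 43.5 and 45.5 CPM in controls and at 82.2, 116 and 130 after volume depletion, a log2 fold change of 1.44 ± 0.26 (adjusted p = 0.00019). Rps27 was at 0.215, 0.229, 0.259 and 0.262 CPM in controls and at 0.664, 1.03 and 2.03 after volume depletion (2.34 ± 0.55, adjusted p = 0.0020). Rpl34 was at 0.420 to 0.861 CPM in controls and 1.38 to 2.09 after volume depletion (1.498 ± 0.45, adjusted p = 0.011). In the 10 control Hoxb7 pulldowns of both sexes, Rps27 held 4 to 17 counts per library and Rpl34 held 8 to 36. Rps15a held 692 to 1555. Of the windows of Rps27, 1.35% were found in no other transcript. The fold changes of Rps27 and Rpl34 therefore rest on few counts and are less certain than that of Rps15a. None of the 3 overlapped between groups, and Rpl34 lost its call without vAKI Hoxb7 replicate 6. The annotated Rps15a transcript used for length runs to 5130 bases, far beyond its coding length of 390 bases. While 64 other genes share at least 1 window with it, 93.9% of its windows were found in no other transcript. That share is over the 5130 bases, and it was not examined for the coding part alone.

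Other members rose less. Rpl10a, of the large subunit, was at 16.2 to 28.7 CPM in controls and 35.1 to 46.0 after volume depletion (0.94 ± 0.16). Rpl36 was at 5.03 to 10.8 CPM and 12.8 to 15.9 (0.89 ± 0.21), and Rpl10, which completes the large subunit before its first round of translation, at 64.5 to 94.1 CPM and 106.1 to 142 (0.65 ± 0.16). Rps19 (0.54 ± 0.16), Rpl38 (0.55 ± 0.20) and Rpl11 (0.48 ± 0.15) passed as well, but all 3 calls were lost without vAKI Hoxb7 replicate 7. Those of Rpl38 and Rpl11 were also lost without Control Hoxb7 replicate 2, and that of Rpl38 without Control Hoxb7 replicate 3 or vAKI Hoxb7 replicate 4 or 6. The 1 member that fell was Rpl15, at 32.8, 34.7, 36.8 and 45.1 CPM in controls and 25.3, 27.02 and 27.1 after volume depletion (-0.50 ± 0.14, adjusted p = 0.0084). Rpl15 had risen after ischemia in Atp6b1v1. Rps6 was at 0.21 ± 0.15 and Rplp0 at 0.53 ± 0.23, neither past the threshold.

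The short-lived mRNAs moved far more in these libraries, with 29 of 30 higher, against 17.9% of all genes, and a median of 2.79. That list includes genes that the study had itself reported as raised by volume depletion. It is therefore not an independent set, and the part of mRNA lifetime was not tested. Fos was at 3.71 ± 0.59. Of the 21 TOP mRNAs 4 were higher and 1 lower, and of 67 biogenesis factors 17 were higher and 13 lower. The rise did not pass the test in females. In the fit over 43 pulldowns, 0 members were higher or lower after volume depletion in Hoxb7 females, where 0.137% of all genes were higher and 0.137% lower, beside 19 higher and 1 lower in males, where 16.0% of all genes were higher and 15.5% lower. At an unadjusted p under 0.05 in that edgeR fit, the only tool run, 2 members were higher and 0 lower in females. That fit had no term for library series. All injured Hoxb7 libraries belong to series A, whereas the female controls of 5.5 months fall into series A, B and C. The share of counts was 0.211% to 0.271% in the injured females. It was 0.195% in the series A female control and 0.258% to 0.338% in those of series B and C. The change in females minus that in males was lower for 4 members, against 7.48% of all genes, with a median of -0.37 over the members. Among the 4 were Rpl41 at -0.85, Rpl10a at -0.76 and Rps16 at -0.75, and 0 members were higher. The male controls of 5.5 months fall into series A and B and the female ones into series A, B and C. The part of series in this difference was not tested.

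In Atp6b1v1 pulldowns of males, volume depletion raised 2 of 81 members and lowered 0, against 8.11% higher and 6.47% lower over all genes. At an unadjusted p under 0.05 there were 19 higher and 0 lower, and DESeq2 called 6 and 0. The median was 0.21. The 2 were Rps15a (1.23 ± 0.25, adjusted p = 0.0024) and Rps27 (1.53 ± 0.51, adjusted p = 0.048), and Rpl34 followed at 1.04 ± 0.41 (adjusted p = 0.091). Both calls were lost in a fit of only the groups compared. That of Rps27 was also lost without any 1 of Control Atp6b1v1 replicates 6, 9 and 10, Control Hoxb7 replicates 2 to 5, iAKI Atp6b1v1 replicate 4, iAKI Hoxb7 replicates 4 to 7, vAKI Atp6b1v1 replicates 6 and 7 and vAKI Hoxb7 replicate 6. These were the 3 leading genes in Hoxb7 as well, and the 2 drivers have separate controls. Few counts underlie Rps27 and Rpl34 here too, with 3 to 15 and 6 to 36 per library in the 11 control Atp6b1v1 pulldowns.

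The 4 injured libraries of this group fell apart by series. Rps15a was at 43.03 and 51.7 CPM in the series A libraries and at 123 and 128 in those of series B, with controls at 29.8 to 42.1. Rps27 was at 0.351 and 0.441 CPM in series A and at 1.41 and 1.84 in series B, with controls at 0.137 to 0.558. Over 77 members, the median log2 difference from controls of the same series was 0.00 in series A, with 37 above 0, and 0.42 in series B, with 76 above 0. Slc34a1 was at 1543 and 1960 CPM in the series A libraries and at 309.8 and 446.7 in series B, and Fos at 9.35 and 39.8 and at 75.96 and 84.9. Over the 4 libraries, intercalated cell markers were at 504 to 627 CPM, below the controls at 811 to 1055 (males of 5.5 months). The part of the series, or of what moved with it, was not tested. Without vAKI Atp6b1v1 replicate 1 or 2, the series A libraries, 15 or 7 members were called higher. The shares over all genes in those fits are not given here. The interaction of volume depletion with driver passed for 0 members in edgeR and in DESeq2, with 1 higher and 1 lower at an unadjusted p under 0.05, against 2.04% higher and 2.16% lower over all genes.

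The 2 injuries were also set against each other within each driver. In Atp6b1v1, 27 members were lower after volume depletion than after ischemia and 4 higher, against 14.3% lower and 15.0% higher over all genes. The 4 were Rpl34 (2.13), Rps27 (1.90), Rpl3l (1.08) and Rps15a (0.75 on the log2 scale), and the 27 were led by Rpl15 (-0.82), Rpl39 (-0.72) and Rps4x (-0.70). In Hoxb7, 20 members were higher after volume depletion and 0 lower (1 lower at an unadjusted p under 0.05, and 0 with DESeq2), against 16.4% and 16.9% of all genes, again led by Rps27 (2.63), Rpl34 (1.53) and Rps15a (1.44). In Atp6b1v1 the 31 calls became 17 without iAKI Atp6b1v1 replicate 1 and 16 without vAKI Atp6b1v1 replicate 2. In Hoxb7 the 20 became 13 without iAKI Hoxb7 replicate 4, 10 without vAKI Hoxb7 replicate 6 and 12 without vAKI Hoxb7 replicate 7. These comparisons share libraries with those against controls and are not independent of them.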

How the data were processed

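Per the submitters' processing notes and the study's methods, reads were processed with CASAVA 1.8.2, trimmed with Trimmomatic 0.36, aligned to mm10 with STAR 2.5.3a and counted per gene with HTSeq 0.6.1p2 at default settings, so that reads mapping to several places were left out. The gene annotation is not given in the sources used here. The authors deposited raw counts per gene, which were used as deposited for all 69 libraries, between 12618062 and 30305464 counts each. No column of another sample was present.

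Counts were tested with edgeR 4.0.16 (TMM scaling, quasi-likelihood test) in R 4.3.3, with Benjamini-Hochberg adjustment over the 21175 genes that reached 2 counts in the sum of all libraries. The control comparisons used 42 libraries with sex as a covariate, and the injury comparisons used the 22 pulldowns of males of 5.5 months in 6 groups. DESeq2 1.42.0, other scalings, filters and sample sets, the replicate number as a block, and fits without each library were alternatives. Scripts were tested on simulated data with known changes. Transcript lengths, coordinates and unique windows came from GENCODE M21 and start sites from RefSeq, both on GRCm38. All 81 members matched a GENCODE symbol.

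The members, gene lists and tests were chosen with earlier results of these data known. Members with values by library were the 5 highest and 5 lowest against total RNA and the 3 highest and 3 lowest in each injury comparison, among those averaging 10 counts or more, plus a set fixed by role. Other genes were named from the lists, by fixed names or as the 2 highest and 2 lowest of a list. Rps12, Rps14, Rps15, Rps20, Rps28 and the marker and injury genes beside the results were picked after their values were seen. A few genes are counted in the totals but not reported here by name.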

Additional observations from a re-analysis of the deposited data

Results flagged for a closer look

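Among 90 groups of 4 to 10 values examined for a library far from the others, 6 held one, where chance alone gives about 1 in 20. One female iAKI Atp6b1v1 library held the highest share of counts on the ribosomal protein genes, 0.481%, with the other 5 libraries of its group between 0.370% and 0.404%. Rps4l was at 12.7 CPM in Control Hoxb7 replicate 4 and Rpl15 at 40.1 CPM in Control Hoxb7 replicate 3. Among the male iAKI Hoxb7 libraries, Rpl34 was at 0.743 CPM in replicate 6, Rps27 at 0.327 CPM in replicate 4, and Rpl29 at a low 9.55 CPM in replicate 6.

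The ischemia response differed between the drivers for 22 ribosomal protein genes by the interaction test. All 22 were higher in Atp6b1v1, against 3.67% higher and 4.11% lower over all genes. Leaving out 1 library at a time gave 9 to 28 members. With females only or with the replicate block it was called for 0. The series and marker shifts in Hoxb7 described above enter this difference. Of the members described by library, Rps4l differed by 1.32, Rpl15 by 1.10, Rpl39 by 1.04, Rpl13a by 0.97 and Rps6 by 0.78 on the log2 scale, each higher in Atp6b1v1 than in Hoxb7.

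Between the sexes, tested in the fit over 43 pulldowns, the ischemia response of Rpl15 in Hoxb7 was higher in females than in males by 0.64 on the log2 scale. It was the 1 member called higher, where 4.03% of all genes were. The volume depletion response in Hoxb7 was lower in females for Rpl41 (-0.85), Rpl10a (-0.76) and Rps16 (-0.75). Female iAKI Atp6b1v1 pulldowns, which the male comparison does not use, held a share of at least 0.370%, above the highest female control at 0.323%.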

How the results depend on the processing

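Against total RNA, 77 to 79 members were called in either direction under every alternative run, with upper quartile scaling moving the median to -2.89 in Hoxb7 and -2.87 in Atp6b1v1. In Atp6b1v1 these counts can include Rpl10l, which was higher in the main fit. Elsewhere the counts of members called, in either direction, changed as follows, and the cause was not tested. Except where stated, the shares over all genes under these alternatives are not given here. Comparisons are Atp6b1v1 against Hoxb7 controls (1 member), females against males (15), ischemia in Hoxb7 (1) and in Atp6b1v1 (38), volume depletion in Hoxb7 (24) and in Atp6b1v1 (2), volume depletion against ischemia in Hoxb7 (20) and in Atp6b1v1 (31), and the interactions of ischemia (22) and volume depletion (0) with driver.

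Libraries with the same replicate number in different groups did not deviate together (mean correlation -0.0032 over 20 pairs, from -0.475 to 0.376), so the number is not taken to pair them. With the replicate block the counts were 18 between controls, 1 for sex, 3 and 0 for ischemia in Hoxb7 and Atp6b1v1, 6 and 10 for volume depletion, and 0 for the ischemia interaction. In that fit ischemia in Atp6b1v1 and the interaction were called for 0 of all genes, with member medians of 0.81 and 0.94. With a log2 fold change of at least 1 the counts were 0 between controls and for sex, 0 and 1 for ischemia, 3 for volume depletion in Hoxb7, 4 and 3 between the injuries and 5 for the ischemia interaction. With library series as a covariate they were 24 for sex, 6 and 58 for ischemia, 40 and 11 for volume depletion, 31 between the injuries in Hoxb7 and 1 for the volume depletion interaction. With both sexes they were 67 for ischemia in Atp6b1v1, 7 and 28 for volume depletion and 13 between the injuries in Hoxb7. With females only they were 0 for ischemia in Hoxb7, 0 and 13 for volume depletion, 1 and 19 between the injuries and 0 for the ischemia interaction. With only the groups compared they were 2 for ischemia in Hoxb7, 0 for volume depletion in Atp6b1v1, and 37 and 7 between the injuries.

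Sex was called for 38 members under upper quartile scaling and 28 under edgeR's own filter. Ischemia in Hoxb7 was called for 3 with DESeq2, with that filter or with no filter, 2 with 25 males, and 0 for males in the fit with a term for each group and sex, which was chosen after seeing the data. Volume depletion in Atp6b1v1 was called for 6 with DESeq2 and 5 with 25 males. In females only, volume depletion in Hoxb7 changed sign for Rpl11 (-0.083), Rpl15 (0.030) and Rpl38 (-0.21).

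Leaving out 1 library at a time gave 0 to 3 for ischemia in Hoxb7, 13 to 45 in Atp6b1v1, 12 to 29 and 1 to 15 for volume depletion, 10 to 27 and 16 to 35 between the injuries, 9 to 28 for the ischemia interaction and 0 for the other.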
